A study of Homo sapiens with 24 samples.

Results

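Calgranulins and related S100 genes were described over THP-1 lines that carried an inducible NOD1 or NLRP4 sequence or the empty vector. They are the calgranulins S100A8, S100A9 and S100A12 and the related genes S100A4, S100A6, S100A10 and S100A11, a list set by name. All 7 were measured, among 18417 genes in all, each by a single probe set. THP-1 is a human monocytic leukaemia line. The cells of every group had been infected with a lentivirus at low copy number and selected with G418. The NOD1 line carried a 3X FLAG-tagged NOD1 and the NLRP4 line a 3X FLAG-tagged NLRP4, each behind a tetracycline-inducible promoter that doxycycline (DOX) switches on, and the vector line carried no insert. The labels do not say whether a line was a pool or a clone. Each line was measured without DOX and after 6 h of DOX at 1 µg/ml, in wells seeded with 50000 cells, which gave 6 groups of 4 arrays.

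The S100 proteins are small calcium-binding proteins that mostly work as dimers. S100A8 and S100A9 pair to form calprotectin, an abundant cytosolic protein of neutrophils and monocytes. Outside the cell calprotectin starves microbes of zinc and manganese and can act on the receptors TLR4 and RAGE. S100A12, the third calgranulin, is also released by granulocytes and monocytes and binds RAGE. S100A4, S100A6, S100A10 and S100A11 act mainly inside the cell, on myosin, annexins and other partners. NOD1 detects bacterial peptidoglycan in the cytosol, and NLRP4 belongs to the same family of NOD-like receptors.

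Before DOX, NOD1 signal averaged 8.33 ± 0.19 in vector cells and 8.74 ± 0.19 in NOD1-line cells, and DOX took the latter to 12.75 ± 0.18 (SD, n = 4 each, normalized log2 units). NLRP4 signal averaged 6.92 ± 0.33 in uninduced vector cells and 8.09 ± 0.43 in its own line before DOX, 2.25-fold higher (limma adjusted p = 0.0405). DOX took NLRP4 in its own line to 11.93 ± 0.26 (SD, n = 4 each). Arrays of a group correlated at 0.982 to 0.993 across genes. The arrays were numbered in plate order, line by line and uninduced before DOX, so line, DOX and place in that order cannot be told apart. Whether the 4 wells of a group were separate cultures is not stated, and the p-values therefore cover only well-to-well spread, which may be technical. In such bulk RNA more cells of a type and more RNA per cell cannot be told apart.

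The 7 genes lie on chromosome 1, and the 3 calgranulins stand next to each other among the measured genes, with S100A12 between S100A9 and S100A8. The RefSeq start regions of the 3 calgranulins and of S100A11 are shown. S100A8, S100A9 and S100A11 were higher in the NOD1 line than in the vector line with or without DOX, S100A8 by the most. S100A12, the neighbour of S100A8 and S100A9, was called higher only with DOX. Its DOX effect was not shown to differ between these lines (limma adjusted p = 0.730). Each window runs from 250 bases before to 50 bases after the annotated start, on the gene's own strand, in assembly GRCh38.p14. The windows are chr1:153391024-153391323 (minus strand) for S100A8, chr1:153357604-153357903 (plus strand) for S100A9, chr1:153375572-153375871 (minus strand) for S100A12 and chr1:152036955-152037254 (minus strand) for S100A11. Capitals mark the letters TATAAA, the core of a TATA box.
S100A8: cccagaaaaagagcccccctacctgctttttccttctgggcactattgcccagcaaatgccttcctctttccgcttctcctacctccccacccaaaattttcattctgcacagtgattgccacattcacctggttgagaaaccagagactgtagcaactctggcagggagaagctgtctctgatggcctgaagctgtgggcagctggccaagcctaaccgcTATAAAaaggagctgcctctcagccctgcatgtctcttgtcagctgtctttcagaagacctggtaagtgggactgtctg
S100A9: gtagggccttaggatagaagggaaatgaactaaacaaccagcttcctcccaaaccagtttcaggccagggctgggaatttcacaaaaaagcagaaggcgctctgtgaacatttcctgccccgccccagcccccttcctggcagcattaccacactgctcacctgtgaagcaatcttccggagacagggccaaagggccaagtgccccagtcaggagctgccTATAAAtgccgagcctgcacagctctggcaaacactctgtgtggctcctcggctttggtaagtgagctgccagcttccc
S100A12: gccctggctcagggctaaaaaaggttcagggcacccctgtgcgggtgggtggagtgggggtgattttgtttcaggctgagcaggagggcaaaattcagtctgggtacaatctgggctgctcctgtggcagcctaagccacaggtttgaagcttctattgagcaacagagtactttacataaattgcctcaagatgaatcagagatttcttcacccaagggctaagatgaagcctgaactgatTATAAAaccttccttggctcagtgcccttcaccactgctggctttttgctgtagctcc
S100A11: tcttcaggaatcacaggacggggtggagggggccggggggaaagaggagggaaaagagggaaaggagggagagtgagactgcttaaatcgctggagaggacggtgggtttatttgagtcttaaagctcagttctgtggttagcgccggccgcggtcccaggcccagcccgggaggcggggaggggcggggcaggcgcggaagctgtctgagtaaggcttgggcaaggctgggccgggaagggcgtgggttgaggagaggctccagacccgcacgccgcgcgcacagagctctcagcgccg
For S100A8 the table holds 3 windows, and the one with TATAAA between 20 and 40 bases before its start is printed.

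TATAAA began 29 bases before the start in both S100A8 and S100A9, 31 bases before it in S100A4 and 8 bases before it in S100A12. Of 35116 RefSeq windows of this length, 11.5% held TATAAA on either strand. It stood on the gene's strand 20 to 40 bases before the start in 2.3% of them. The S100A8 window was picked from 3 for holding TATAAA there, so its match was set by that choice and cannot be compared with these shares. The windows of S100A6, S100A10 and S100A11 held no TATAAA. They held 31, 32 and 22 CpG pairs, against 2 in S100A8, 5 in S100A9, 1 in S100A12, 8 in S100A4 and a median of 14 over all windows. Further motifs were searched on both strands. GAGGAA, a core of PU.1 sites, stood in S100A8 and S100A9 and in 27.9% of all windows. TTGCNNAA, a form of the C/EBP site, stood in S100A12 and S100A11 and in 10.5%, and TGANTCA, the AP-1 site, in S100A12 and in 7.71%. GGGCGG, the core of an SP1 site, stood in S100A9, S100A6, S100A10 and S100A11 and in 45.0%. TTCNNNGAA, the STAT site, stood in none of the 7 windows and in 7.66% of all. These are matches of letters, and binding was not measured.

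S100A8 was higher in the NOD1 line than in either other line, with or without DOX. Without DOX its normalized log2 signals were 8.71, 9.94, 9.83 and 9.53 in the vector line, and the NOD1 line gave 11.22, 11.79, 11.83 and 12.20. No array of one line reached those of the other. The difference was 2.25 (SE 0.274, 95% interval 1.69 to 2.82), or 4.77-fold, with a limma adjusted p of 1.49e-06. With DOX the vector arrays gave 9.59, 9.99, 10.51 and 9.64 and the NOD1 arrays 12.03, 12.01, 12.22 and 11.66, a difference of 2.05 (SE 0.274, limma adjusted p = 4.62e-06). The NLRP4 line lay at the low end, with 8.97, 8.98, 9.41 and 9.28 without DOX and 9.23, 9.46, 8.16 and 9.40 with it. The third DOX-treated NLRP4 array stood lowest of all 24. The NOD1 line exceeded the NLRP4 line 6.05-fold without DOX (limma adjusted p = 1.79e-07) and 7.56-fold with it (limma adjusted p = 4.64e-08). All 8 arrays of the NOD1 line were above all 16 others.

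In order of its mean, S100A8 ran from the DOX-treated NOD1 line at 11.98 ± 0.23 (SD, n = 4) to the uninduced NOD1 line at 11.76 ± 0.41, the DOX-treated vector line at 9.93 ± 0.43 and the uninduced vector line at 9.50 ± 0.56. The uninduced NLRP4 line at 9.16 ± 0.22 and the DOX-treated NLRP4 line at 9.06 ± 0.61 came last. Neighbours in this order overlapped except at the step of 1.83 between the NOD1 line and the vector line.

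S100A9, which encodes the partner of S100A8 in calprotectin, was also higher in the NOD1 line, by a smaller factor. Without DOX its signals were 8.89, 9.07, 8.90 and 9.03 on the vector arrays and 9.39, 9.80, 9.60 and 9.88 on the NOD1 arrays. The arrays did not overlap, and the difference was 0.69 (SE 0.150, 95% interval 0.38 to 1.01), or 1.62-fold (limma adjusted p = 0.00111). With DOX the vector line gave 8.58, 9.05, 9.10 and 8.87 and the NOD1 line 9.37, 9.42, 9.61 and 9.49, a 1.48-fold difference (limma adjusted p = 0.00595). The NLRP4 line spread from 8.40 to 9.08 over its 8 arrays. Against it the NOD1 line was 1.93-fold higher without DOX (limma adjusted p = 3.59e-05) and 1.71-fold higher with it (limma adjusted p = 0.000386). As for S100A8, the 8 NOD1-line arrays were above all 16 others. Its means ran from 9.67 ± 0.22 and 9.47 ± 0.11 in the NOD1 line without and with DOX, through 8.97 ± 0.09 and 8.90 ± 0.24 in the vector line, to 8.72 ± 0.37 and 8.70 ± 0.22 in the NLRP4 line (SD, n = 4 each). Neighbours in that order overlapped except where the NOD1 line met the vector line.

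The signals of S100A8 and S100A9 did not differ between the lines by the same amount. Within each array the difference of their log2 signals averaged 2.09 ± 0.23 for the NOD1 line and 0.53 ± 0.51 for the vector line, both without DOX (SD, n = 4 each). This gap moved by 1.56 between the lines, or 2.95-fold, and the arrays separated (two-sided exact permutation p = 0.0286, the smallest that 4 against 4 arrays can give). With DOX it moved by 1.48 (two-sided exact permutation p = 0.0286). These are 2 of 10 such pair tests, chosen after the values were seen and not adjusted. They show unequal change of probe set signals, not amounts of the partners.

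S100A12 had another pattern from its neighbours: without DOX it did not separate the NOD1 line from the vector line, and with DOX it did. Without DOX the vector line gave 7.92, 8.60, 7.42 and 7.92 and the NOD1 line 7.70, 8.17, 7.55 and 8.14. The arrays overlapped throughout, and the difference was -0.08 (95% interval -0.58 to 0.42, limma adjusted p = 0.867). With DOX the vector line gave 7.41, 7.89, 7.29 and 7.57 and the NOD1 line 8.38, 9.05, 9.83 and 8.59. Every NOD1 array was above every vector array, by 1.42 on average (SE 0.242, 95% interval 0.92 to 1.92), or 2.68-fold (limma adjusted p = 8.41e-05). The NLRP4 line gave 7.39, 7.32, 7.79 and 7.45 without DOX and 7.23, 7.06, 7.24 and 7.27 with it, the lowest values of S100A12. Against it the DOX-treated NOD1 line was 3.39-fold higher (limma adjusted p = 6.89e-06), while the uninduced NOD1 line was 0.40 higher, a difference that did not pass (limma adjusted p = 0.250). By mean, the DOX-treated NOD1 line at 8.96 ± 0.64 was followed by the vector line without DOX at 7.97 ± 0.49 and the NOD1 line without DOX at 7.89 ± 0.31 (SD, n = 4 each). The DOX-treated vector line at 7.54 ± 0.26 and the NLRP4 line without DOX at 7.49 ± 0.21 and with it at 7.20 ± 0.09 came after. Neighbours overlapped except the 2 NLRP4 groups.

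Within the NOD1 line S100A12 was at 7.89 ± 0.31 without DOX and 8.96 ± 0.64 with it (SD, n = 4 each), and the arrays did not overlap. This difference of 1.07 (SE 0.242, 95% interval 0.58 to 1.57), or 2.11-fold, did not pass over all genes (limma adjusted p = 0.253, unadjusted p = 0.000178). An exact permutation test of the 4 against 4 arrays gave its smallest two-sided p, 0.0286, which, among the DOX comparisons, S100A6 in the vector line and S100A12 in the NLRP4 line also reached; 63 such tests of members were run. Over 15 alternative settings the difference ran from 0.78 to 1.27 and its adjusted p from 0.0886 to 1.00, and it passed in 0. Without the highest array, at 9.83, it was 0.78. DOX gave -0.43 in the vector line and -0.29 in the NLRP4 line, neither past the threshold. The DOX effect of the NOD1 line exceeded that of the vector line by 1.50 (95% interval 0.79 to 2.21, limma adjusted p = 0.730) and that of the NLRP4 line by 1.36 (95% interval 0.66 to 2.07, limma adjusted p = 0.342). Both intervals, which are not adjusted, lie above 0, and neither difference passed the test over all genes. The S100A12 signal was near the low end of the arrays, where the lowest 25% of genes end at 7.80, and no background level was measured here.

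**Figure D1:**
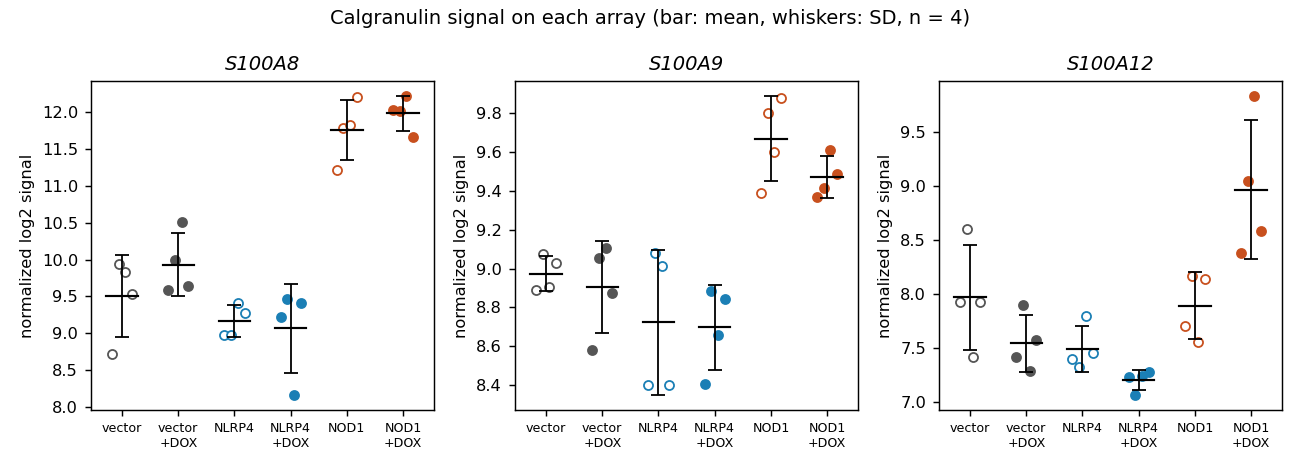
Normalized log2 signal of S100A8, S100A9 and S100A12 on each of the 24 arrays, by line and DOX, with open points for no DOX, filled points for DOX, and bars and whiskers for the mean and SD of 4 arrays. S100A8 and S100A9 stand above all other arrays in both NOD1-line groups, and S100A12 averages 8.96 in the DOX-treated NOD1 line and 7.97 or less in the other groups; each panel has its own axis.

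S100A11, which binds annexin A1 and takes part in membrane repair, was higher in the NOD1 line in both states. Without DOX the vector arrays gave 12.33, 11.75, 11.94 and 11.73 and the NOD1 arrays 12.74, 12.78, 12.56 and 12.88. The first vector array stood above the other vector arrays, yet the lines did not overlap. The difference was 0.81 (SE 0.113), or 1.75-fold (limma adjusted p = 9.07e-06). With DOX it was 1.70-fold (limma adjusted p = 1.55e-05), from 11.84 ± 0.04 in the vector line to 12.61 ± 0.14 in the NOD1 line (SD, n = 4 each). Against the NLRP4 line the NOD1 line was 1.69-fold higher without DOX (limma adjusted p = 1.50e-05) and 1.52-fold higher with it (limma adjusted p = 0.000233). The NLRP4 line averaged 11.98 ± 0.15 (SD, n = 4) without DOX, and its arrays ran from 11.80 to 12.09 with it, overlapping the vector arrays.

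S100A6, or calcyclin, which binds CacyBP and several annexins, was higher in the NOD1 line by a smaller factor. It gave 10.64, 10.73, 10.66 and 10.63 on the vector arrays and 10.87, 11.33, 11.14 and 11.11 on the NOD1 arrays without DOX. The lines did not overlap, and the difference was 0.45 (SE 0.103), or 1.36-fold (limma adjusted p = 0.00215). With DOX it was 1.35-fold (limma adjusted p = 0.00252). Against the NLRP4 line S100A6 was 1.48-fold higher without DOX (limma adjusted p = 0.000191), and with DOX the 0.28 by which it stood higher did not pass (limma adjusted p = 0.0504). When arrays were centred on their medians in place of quantile normalization, the call of S100A6 was lost in all 3 of these comparisons, at 0.32 (limma adjusted p = 0.178), 0.43 (limma adjusted p = 0.0623) and 0.39 (limma adjusted p = 0.0951). It averaged 10.55 ± 0.16 (SD, n = 4) in the NLRP4 line without DOX. Its means with DOX were 10.57 ± 0.09 in the vector line, 10.73 ± 0.05 in the NLRP4 line and 11.01 ± 0.23 in the NOD1 line (SD, n = 4 each). All 8 NOD1-line arrays were above the 16 others for S100A11 and for S100A6.

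S100A4, which binds non-muscle myosin heavy chain, and S100A10, the partner of annexin A2, did not pass in any of the 12 comparisons. S100A4 averaged 13.08 ± 0.23, 13.23 ± 0.18 and 13.04 ± 0.24 in the vector, NOD1 and NLRP4 lines without DOX (SD, n = 4 each). Its arrays overlapped between the lines, and the interval of the NOD1 minus vector difference, 0.15, was -0.08 to 0.38. With DOX the 4 NOD1 arrays, from 13.29 to 13.35, were above the 4 vector arrays, from 13.10 to 13.25, at the same difference of 0.15 (limma adjusted p = 0.378). The DOX-treated NLRP4 line averaged 13.19 ± 0.10 (SD, n = 4). S100A10 averaged 10.65 ± 0.23, 10.81 ± 0.34 and 10.74 ± 0.18 in the uninduced vector, NOD1 and NLRP4 lines (SD, n = 4 each), and its interval for NOD1 minus vector was -0.21 to 0.52. With DOX it averaged 10.85 ± 0.21 in vector, 10.75 ± 0.40 in NOD1 and 10.58 ± 0.17 in NLRP4 cells (SD, n = 4 each). Its 8 NOD1-line arrays spread from 10.28 to 11.31, wider than the 16 others. The gap between S100A11 and S100A10 within an array moved by 0.65 between the uninduced lines (two-sided exact permutation p = 0.0571) and by 0.86 between the DOX-treated lines (two-sided exact permutation p = 0.0286).

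**Figure D2:**
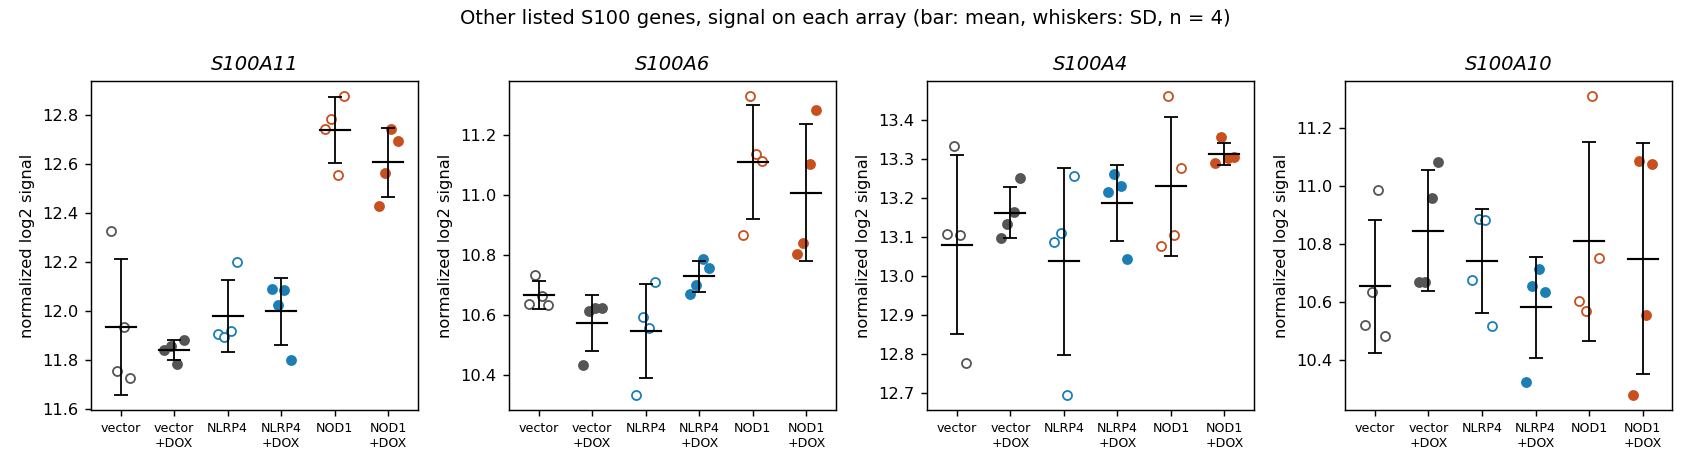
Normalized log2 signal of S100A11, S100A6, S100A4 and S100A10 on each of the 24 arrays, with open points for no DOX, filled points for DOX, and bars and whiskers for the mean and SD of 4 arrays. The 8 NOD1-line arrays lie above the 16 others for S100A11 and S100A6 and overlap them for S100A4 and S100A10; each panel has its own axis.

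Counted together, 4 of the 7 genes were higher and 0 lower in the uninduced NOD1 line than in the uninduced vector line, where 24.9% of all genes were called in either direction. The median difference was 0.45 over the 7 genes and 0.03 over all genes. With DOX 5 of the 7 were higher, with S100A12 added, against 25.8% of all genes called, and the medians were 0.57 and 0.02. Against the NLRP4 line the counts were 4 of 7 without DOX, against 27.0% of all genes, and 4 of 7 with it, against 25.4%. The 4 with DOX were S100A8, S100A9, S100A12 and S100A11, and the 4 without DOX were S100A8, S100A9, S100A6 and S100A11. The comparisons of a state share the NOD1 arrays, so their counts are not independent.

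None of these genes passed between the NLRP4 line and the vector line: 0 of 7 were called without DOX, against 0.0163% of all genes, and 0 of 7 with it, against 0.0380%. At an unadjusted limma p under 0.05 the counts were 0 and 1. Without DOX the differences ran from -0.48 for S100A12 to 0.09 for S100A10. With DOX S100A8 was 0.87 lower in the NLRP4 line (95% interval -1.43 to -0.30), and the 4 arrays of each line did not overlap. With DOX the arrays also did not overlap for S100A12, 0.34 lower in the NLRP4 line, and for S100A6, 0.16 higher. None of these passed over all genes (limma adjusted p = 0.560 for S100A8, 0.926 for S100A12 and 0.911 for S100A6).

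The comparison of DOX with no DOX called none of the 7 genes within a line. In the NOD1 and NLRP4 lines DOX also induced the insert, so only the vector line shows DOX alone. In the vector line 0 of 7 passed, where 0% of all genes were called and 3.38% had an unadjusted p under 0.05. In the NLRP4 line it was 0 of 7 against 0.0163%, and in the NOD1 line 0 of 7 against 0.0109%. At an unadjusted limma p under 0.05, 0, 0 and 1 members passed in the 3 lines. For S100A8 the DOX differences were 0.43 (95% interval -0.14 to 0.99) in the vector line, -0.10 (-0.66 to 0.47) in the NLRP4 line and 0.22 (-0.34 to 0.79) in the NOD1 line. For S100A9 they were -0.07, -0.03 and -0.20. The DOX effects differed between lines for 0 of 7 members in each pair, against 0.00543% of all genes for NOD1 minus vector, 0.00543% for NLRP4 minus vector and 0.0109% for NOD1 minus NLRP4. At an unadjusted limma p under 0.05 the counts for these pairs were 1, 0 and 1. The differences between the NOD1 and vector lines in S100A8, S100A9, S100A6 and S100A11 were present before DOX. NOD1 signal was then 1.32-fold higher in the NOD1 line than in the vector line (limma adjusted p = 0.0299). These S100 differences were not shown to change after NOD1 had risen 16.2-fold with DOX (limma adjusted p = 7.39e-16). Whether NOD1 caused them was not tested.

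**Figure D3:**
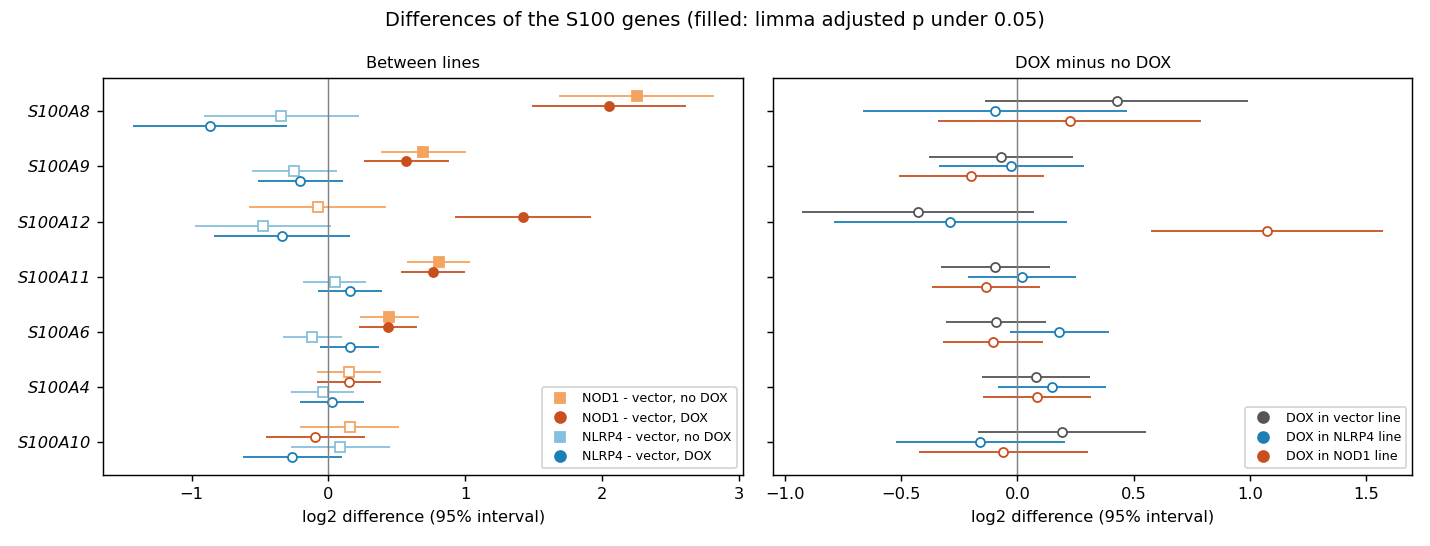
Log2 differences of the 7 S100 genes with 95% intervals, for NOD1 minus vector, NLRP4 minus vector and the DOX effects, filled where limma's adjusted p was under 0.05. S100A8 has the widest gap between the NOD1 and vector lines, 2.25 without DOX and 2.05 with it, and no DOX effect within a line is filled.

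Of 15 other genes with an S100 symbol, 2 were called higher and 0 lower in the NOD1 than the vector line without DOX. This is a share below the 24.9% of all genes, and 10 of the 15 lay in the lowest 25% of genes by signal. S100PBP, counted among the 15, encodes a binding protein of S100P and not an S100 protein, and it was not called. S100P, a RAGE ligand, went from 8.10 ± 0.14 to 8.76 ± 0.22 (SD, n = 4 each), a difference of 0.66 (SE 0.131, limma adjusted p = 0.000467). S100A13, which helps export proteins without a signal peptide, was 0.56 higher (SE 0.155, limma adjusted p = 0.0091), and its call was lost with array weights, at 0.45 (limma adjusted p = 0.0643). Against the uninduced NLRP4 line S100A13 was 0.28 higher in the NOD1 line and did not pass (limma adjusted p = 0.203). S100P passed there, 0.68 higher (limma adjusted p = 0.000296).

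From S100A9 to S100A1, 15 measured genes in RefSeq order on chromosome 1, 4 were called higher in the NOD1 line without DOX, a share near the 24.9% of all genes: S100A9, S100A8, S100A6 and S100A13. S100A12, S100A4 and the other genes between them were not called. The 43 measured genes between S100A11 and S100A9, most of them epidermal genes of the cornified envelope, ran from -0.28 to 0.30. Only SPRR1A of these 43 was called, 0.28 lower (limma adjusted p = 0.0411). The 3 genes beyond S100A1, chosen after their values were seen, were all called higher: CHTOP by 0.48, SNAPIN by 0.89 and ILF2 by 0.32. The 3 genes before S100A10 were not called.

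**Figure D4:**
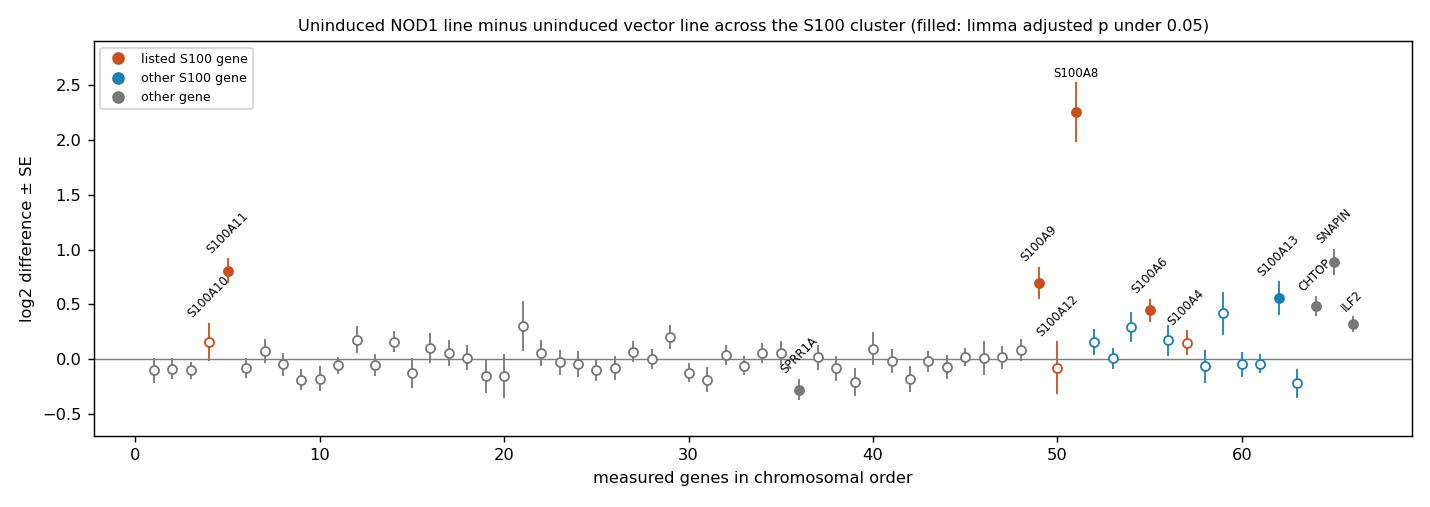
Log2 difference, with its SE, of the uninduced NOD1 line minus the uninduced vector line for measured genes in chromosome 1 order, from 3 genes before S100A10 to 3 beyond S100A1, filled where limma's adjusted p was under 0.05. S100A8, at 2.25, is the highest point, and its neighbour S100A12 is at -0.08.

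Genes that act with the S100 proteins outside and inside the cell went both ways. Of 15 receptors and signalling genes of extracellular S100 proteins, 7 passed as higher and 3 as lower in the NOD1 line than in the vector line without DOX, where 24.9% of all genes were called, 52.2% of them higher. With values as deposited or arrays centred on their medians 5 of the 15 were higher, and with only the arrays compared 4. The 4 with the lowest p were CD68, TLR4, CD36 and ALCAM. TLR4, the endotoxin receptor on which calprotectin can act, was at 9.93 ± 0.32 in the vector line and 8.81 ± 0.26 in the NOD1 line (SD, n = 4 each), 2.17-fold lower (limma adjusted p = 8.30e-06). CD36, a scavenger receptor that binds calprotectin carrying arachidonate, was 1.60-fold lower (limma adjusted p = 1.11e-05). CD36 was also lower in the NLRP4 line than in the vector line with DOX, by 0.81 (limma adjusted p = 0.000141), and its difference of -0.39 without DOX did not pass (limma adjusted p = 0.446). ALCAM, an adhesion molecule of the RAGE-like family, was 1.54-fold lower (limma adjusted p = 3.42e-05). CD68, a lysosomal glycoprotein of macrophages, was 2.28-fold higher (limma adjusted p = 3.17e-07).

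Of 20 annexins and other intracellular partners, 7 were higher and 2 lower, against 24.9% of all genes called, and their median difference was 0.07. CAPZB, an actin-capping subunit, was 0.91 higher (limma adjusted p = 4.54e-08), and MYH9, the myosin that S100A4 binds, was 0.98 higher (limma adjusted p = 1.25e-05). ANXA1, the partner of S100A11, was 0.55 higher (limma adjusted p = 0.000924) and ANXA6 0.42 higher (limma adjusted p = 0.00184). Centring arrays on their medians left 3 higher and ended the calls of ANXA1, at 0.43 (limma adjusted p = 0.131), and ANXA6, at 0.28 (limma adjusted p = 0.179). Leaving out vector replicate 4 or NOD1 replicate 2 of the uninduced arrays left 4 higher. Of 5 measured genes of the NADPH oxidase, to which calprotectin delivers arachidonate, 3 were higher, against 24.9% of all genes called: CYBA by 0.71, RAC2 by 0.64 and NCF4 by 0.68 (limma adjusted p = 0.000105, 0.000306 and 0.00224).

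Of 18 transcription factors known to act on calgranulin genes, 8 were called higher in the NOD1 line without DOX and 1, HIF1A, lower, where 24.9% of all genes were called. Their median difference was 0.26, against 0.03 over all genes. STAT3 was 0.77 higher (limma adjusted p = 5.36e-06) and SPI1, which encodes PU.1, 0.70 higher (limma adjusted p = 1.11e-05). GFI1, a repressor of granulocyte genes, was 0.61 higher (limma adjusted p = 2.24e-05), and CEBPD, a C/EBP factor, 0.44 higher (limma adjusted p = 0.000519). Without vector replicate 4 or NOD1 replicate 2 of the uninduced arrays 5 were higher.

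Of 14 other antimicrobial and granule proteins of myeloid cells, 9 were called higher and 0 lower, against 24.9% of all genes called. Their median difference was 0.39. CHI3L1, a secreted chitinase-like protein, went from 12.45 ± 0.22 to 13.94 ± 0.11 (SD, n = 4 each), 2.81-fold (limma adjusted p = 1.05e-08). The azurophil granule genes AZU1, PRTN3 and CTSG were 0.87, 0.61 and 0.37 higher (limma adjusted p = 3.13e-06, 6.11e-05 and 2.45e-05). Against the uninduced NLRP4 line AZU1 and PRTN3 also passed, 0.85 and 0.78 higher (limma adjusted p = 3.56e-06 and 2.59e-06). CTSG was 0.15 higher there and did not pass (limma adjusted p = 0.0519). With arrays centred on their medians 4 of the 14 were higher, and CTSG was at 0.20 (limma adjusted p = 0.465).

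Markers of monocytes and of progenitors also differed between these lines. Of 21 monocyte markers, 13 lay above the median gene, 9 passed as higher in the NOD1 line without DOX and 2 as lower, against 24.9% of all genes called. With arrays centred on their medians 6 were higher. MS4A6A was 1.24 higher (limma adjusted p = 3.16e-09), and AIF1 was 0.53 higher (limma adjusted p = 2.47e-05), a call lost at 0.40 with arrays centred on their medians (limma adjusted p = 0.0839). The 2 called lower were MNDA, by 0.36 (limma adjusted p = 0.00959), and PTPRC, by 0.31 (limma adjusted p = 0.0117). Without NOD1 replicate 2 of the uninduced arrays none of the monocyte markers was called lower. The median difference of the 21 was 0.22. CD68, SPI1, LYZ and CD14, called higher here, are also counted in lists above, so the counts of these lists are not independent. The summed log2 signal of the 21 spanned 205.0 to 207.0 on the vector arrays and 210.4 to 213.8 on the NOD1 arrays. Of 7 progenitor markers KIT, the stem cell factor receptor, was 1.89 higher (limma adjusted p = 7.64e-10), FLT3 0.72 higher (limma adjusted p = 5.03e-06) and MEIS1 0.33 lower (limma adjusted p = 0.00566). KIT and MEIS1 were among 4 of these 7 markers that lay in the lowest 25% of genes by signal. FLT3 was also 0.56 higher in the NLRP4 line than in the vector line without DOX (limma adjusted p = 0.0435). Thus 2 of the 7 were called higher and 1 lower in the uninduced NOD1 line, where 24.9% of all genes were called. The sum of the 7 spanned 60.4 to 61.2 on the uninduced vector arrays and 62.5 to 63.3 on the uninduced NOD1 arrays. Their median difference was 0.01, with 4 of the 7 above 0, so the sum does not describe the list as a whole. The call of MEIS1 was lost in the values as deposited, at -0.36 (limma adjusted p = 0.0709). The part of these marker differences in the S100 results was not tested.

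In the lowest 25% of genes by signal lay 7 of 10 T and NK cell markers, 1 of 6 B cell markers, 2 of 6 erythroid and megakaryocyte markers and 2 of 6 epithelial markers. Of the T and NK cell markers 2, NKG7 and GNLY, were called, a share below the 24.9% of all genes. They were higher by 0.38 and 0.24 (limma adjusted p = 0.00642 and 0.0287). With arrays centred on their medians neither was called (limma adjusted p = 0.116 and 0.340). Over 14 alternatives GNLY kept its call in 6. The settings that lost it included those without vector replicate 2 or 4 or NOD1 replicate 2 or 3 of the uninduced arrays. Of 6 B cell markers and 6 erythroid and megakaryocyte markers 0 were called. Of 6 epithelial markers EPCAM was lower by 1.89 (SE 0.416, limma adjusted p = 0.00129), and it varied between arrays, with an SD of 0.96 in the vector line without DOX. Averaging its probe sets in place of taking the brightest put it at -1.07. Within the lines DOX called 0 of the 143 entries of these 12 lists, some genes being in several lists. Of all genes it called 0% in the vector line, 0.0163% in the NLRP4 line and 0.0109% in the NOD1 line.

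**Figure D5:**
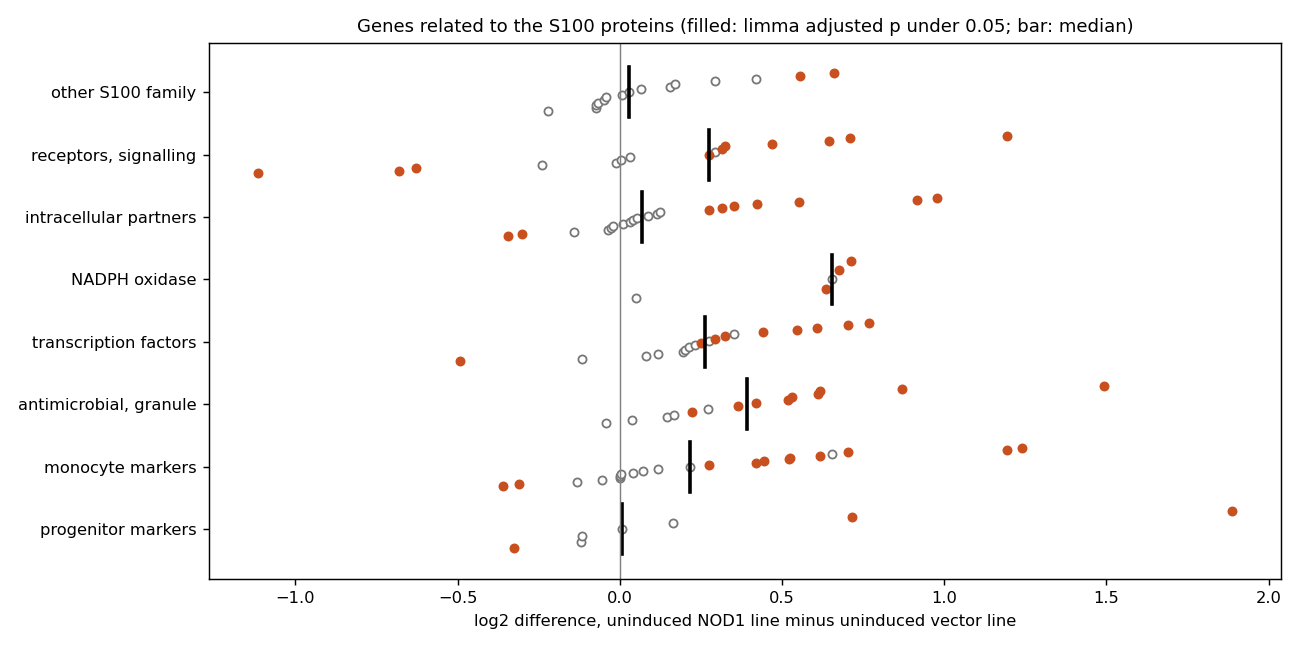
Log2 difference of the uninduced NOD1 line minus the uninduced vector line for genes of 8 lists related to the S100 proteins, each point a gene, filled where limma's adjusted p was under 0.05, with a bar at the median of a list. The antimicrobial and granule list has 9 filled points above 0 and none below, and the receptor list has 3 below, TLR4, CD36 and ALCAM.

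The genes whose signal was most like that of a calgranulin over the 24 arrays were named by Pearson's r, as a description. For S100A8 and S100A9 the arrays fall into a high and a low level by line, so r mostly carries that gap. For S100A12 the line without DOX made no such gap, with means of 7.89 in the NOD1 line and 7.97 in the vector line. Its high level, at 8.96, was that of the DOX-treated NOD1 line. For all named genes r within groups is smaller. For S100A8 they were MS4A6A (r = 0.956, 0.657 within groups), TMEM9B (0.949, 0.595), HSBP1 (0.947, 0.502), MED8 (0.942, 0.430) and CTSC (0.939, 0.701). CTSC encodes the protease that activates the serine proteases of granules. For S100A9 they were ST14 (r = 0.915, 0.600 within groups), SLPI (0.908, 0.701), RNF114 (0.880, 0.329), P3H1 (0.879, 0.472) and ALDH1A1 (0.878, 0.370). SLPI is a secreted inhibitor of leukocyte proteases, and ST14 a membrane serine protease. For S100A12 they were MT1E (r = 0.832, 0.419 within groups), CEBPB (0.831, 0.650), NQO1 (0.822, 0.627), TMEM219 (0.817, 0.478) and MRPL18 (0.808, 0.632). CEBPB is a C/EBP factor of myeloid cells, MT1E a metallothionein and NQO1 a quinone reductase. The 3 sets of 5 shared no gene.

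Among the calgranulins r over the 24 arrays was 0.870 for S100A8 with S100A9 (0.417 within groups), 0.677 for S100A8 with S100A12 (0.201) and 0.617 for S100A9 with S100A12 (0.340). S100A8 and S100A11, both higher in the NOD1 line, had r = 0.770 over all arrays and -0.38 within groups. The arrays of a group thus did not rank alike for these 2 genes.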

How the data were processed

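Total RNA of THP-1 wells was measured on Affymetrix Human Gene ST arrays, 24 in all. Each array was deposited as log2 signals of its probe sets. RMA and the oligo package were used, per the submitters' processing notes. Versions, build and step order were not given in the sources used. The deposited array medians ran from 8.06 to 8.85, so that brightness can enter a comparison of values as deposited.

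The platform annotation gave 19460 of the 33297 probe sets exactly 1 symbol, gave 1754 several and left 12083 unnamed here. Entrez IDs linked 19429 of the former to current symbols in a RefSeq table of GRCh38.p14. The probe set with the highest mean stood for its gene, which left 18417 genes. The gene table was quantile normalized, and limma 3.58.1 in R 4.3.3 fitted 6 group means over all arrays, with empirical Bayes moderation and 18 residual degrees of freedom. No filter on dim genes was applied. In each of 12 comparisons, calls were made where the p adjusted by Benjamini-Hochberg over all genes was under 0.05. Intervals are 95% intervals and are not adjusted. Exact permutation tests were two-sided. Array precision is limited by the 4 arrays per group.

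Genes named from a list are the called members with the lowest p, at most 4, in the uninduced NOD1 and vector lines, and those most like a calgranulin are the 5 with the highest Pearson r. HIF1A, MNDA and PTPRC, called lower, are named besides. The members and lists were chosen with earlier results of these data known. Alternatives were the values as deposited, centring on array medians, a fit of only the arrays compared, leaving out the lowest 25% of genes by signal, the mean of a gene's probe sets, array weights, the deposited array median as a covariate, and leaving out each array.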

Additional observations from a re-analysis of the deposited data

Results flagged for a closer look

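Of 42 sets of 4 arrays of a member in a group, 2 had an array far from the others by Dixon's ratio. Chance marks about 1 in 20 such sets. S100A6 in the DOX-treated vector line had its lowest array at 10.43, with the next at 10.61. S100A11 in the uninduced NLRP4 line had its highest array at 12.20, with the next at 11.92.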

How the results depend on the processing

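For the 7 S100 genes, 84 differences were recomputed under the alternatives, 1428 values in all. Of these, 1327 kept direction and side of the threshold, 3 lost a call, 5 gained one, 93 were uncalled values that changed sign or moved, and 0 reversed. The 3 lost calls were those of S100A6 with arrays centred on their medians. The 5 gained were S100A6 in the NOD1 against the NLRP4 line with DOX, whose adjusted p ran from 0.0208 to 0.263 over the alternatives. The differences of S100A8 between the uninduced NOD1 and vector lines ran from 2.00 to 2.45. Over all genes, the counts called in either direction moved by over 1.5 times as follows. Values as deposited called 1 gene with DOX in the NLRP4 line, 1 in the NOD1 line, and 0 and 1 for NLRP4 minus vector without and with DOX. Centring on medians called 6 with DOX in the NLRP4 line, 2 for the NLRP4 minus vector DOX effect, and 1 and 2 for NLRP4 minus vector without and with DOX. A fit of only the arrays compared called 1, 1, 2, 0 and 4 for DOX in the NLRP4 line, DOX in the NOD1 line, the NLRP4 minus vector DOX effect, and NLRP4 minus vector without and with DOX. Array weights called 1 with DOX in the vector line, 2 for the NLRP4 minus vector DOX effect and 18 for NLRP4 minus vector with DOX, for which the median covariate called 3. Leaving out 1 array gave 1 to 8 with DOX in the NLRP4 line, 2 to 8 in the NOD1 line, 1 to 2 for the NOD1 minus vector and 2 to 4 for the NOD1 minus NLRP4 DOX effect, and 0 to 2 and 2 to 6 for NLRP4 minus vector without and with DOX. The causes were not tested. In the values as deposited the median of all genes stood at 0.26 for DOX in the NLRP4 line, 0.15 for the NLRP4 minus vector DOX effect, -0.12 for that of NOD1 minus vector and -0.30 for that of NOD1 minus NLRP4, 0.12 and -0.21 for NOD1 minus NLRP4 without and with DOX, and 0.11 for NLRP4 minus vector with DOX. The 4 comparisons of the NOD1 line kept their totals within that bound but not their split. Without DOX, NOD1 minus vector had 2399 higher and 2193 lower, and 1398 and 2433 with arrays centred; NOD1 minus NLRP4 had 2600 and 2364, and 1418 and 2772 centred. With DOX, NOD1 minus NLRP4 had 2465 and 2219, and 1523 and 3677 as deposited. No paired analysis was possible because the labels number the arrays consecutively and the groups share no replicate numbers.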
